A study of Mus musculus with 20 samples.

Results

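The regions described here are stretches of open chromatin in mouse hematopoietic stem cells (HSC) that were listed after loss of mTOR and that remained listed when 1 copy of c-Myc was removed as well. The regions were chosen by measured peaks: a region is a peak of the second mTOR knockout ATAC-seq library (KO 2) that shared at least 1 bp with a peak of both libraries from knockout mice carrying a floxed c-Myc allele (KO MycHet 1 and 2), and none with a peak of either control library (WT 1 and WT 2). On chromosomes 1 to 19 and X, 2993 of the 72149 KO 2 peaks met this rule, which is 4.15%. They came from 16436 KO 2 peaks without a WT peak, of which 9686 overlapped no KO MycHet peak and 3757 overlapped a peak of 1 KO MycHet list. Of those 16436 peaks, 18.2% were therefore found in both KO MycHet lists.

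All groups were adult mice given poly(I:C), the controls included. WT mice were Mx1-Cre-/-;mTORflox/flox, KO mice were Mx1-Cre+/-;mTORflox/flox, and KO MycHet mice were Mx1-Cre+/-;mTORflox/flox;c-Myc+/flox, so the last 2 groups both lack mTOR after Cre acts and only the last loses a c-Myc copy. The Mx1 promoter answers to interferon and is active in many blood and liver cells, not in HSC alone. ATAC-seq used 50000 cells per library in 2 libraries per genotype, and H3K27ac, H3K4me3 and MYC were profiled by ChIP-seq in 1 WT and 1 KO library each. The labels do not say whether libraries of a genotype came from separate mice, and no ChIP-seq of KO MycHet cells was used here.

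The kinase mTOR sits in complexes that sense nutrients and growth factors and set protein synthesis, metabolism and growth, and its loss is known to disturb HSC quiescence and self-renewal. MYC is a transcription factor that binds promoters and enhancers of growth genes, and its level in HSC bears on the balance between renewal and differentiation. ATAC-seq marks DNA that a transposase can reach, H3K27ac marks active promoters and enhancers, and H3K4me3 marks active promoters.

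The lists differed in length. WT 1 and WT 2 held 17303 and 66531 peaks, KO 1 and KO 2 held 19174 and 72149, and KO MycHet 1 and 2 held 47214 and 53722. By sample number, WT 1 and KO 1 were deposited next to the ChIP-seq samples, and WT 2, KO 2 and both KO MycHet libraries in a separate later run of numbers. The labels do not say what these 2 sets of libraries share. Every library in which a peak was required thus came from the second set, and the KO 1 library held out below from the first, so the library set and the list length cannot be told apart there. Read depth is unknown, so a peak missing from a short list need not be closed chromatin. The targeted gene followed the labels: Mtor had a peak at its start in both WT libraries (scores 341.21 and 1418.45) and in none of the KO or KO MycHet libraries. Myc had one in all 6 libraries. Of 39 HSC identity genes, 36 were open at their start in KO 2, 33 and 32 in KO MycHet 1 and 2, 35 in WT 2, and 21 and 17 in WT 1 and KO 1. Starts of other lineages were also open in KO 2, among them 21 of 30 erythroid and 30 of 35 myeloid genes, so an open start does not tell these cell types apart.

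The count of regions rested on individual libraries. Without WT 2, 25698 peaks met the rule. Without KO MycHet 1 the number was 5640, and with KO 1 in place of KO 2 it was 51. These counts describe how strict each list made the rule, and no test was made of them.

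Few regions lay at gene starts, and their promoters are shown first as the sequences at which the motifs were counted. Of the 21045 RefSeq promoters searched (assembly GRCm38.p6, 250 bases before to 50 after a start), 30 of coding genes shared at least 1 bp with a region. The motif of the AP-1 factors, the Fos and Jun family that responds to stimulation, was searched as TGANTCA on both strands. It was present in 6 of the 30 (95% exact CI 7.71 to 38.6%) and in 7.04% of all promoters. All promoters include those without an ATAC-seq peak, and the share at promoters under KO 2 peaks is not given here. Whether the AP-1 share is particular to the regions or common to open promoters was thus not tested. Several motifs were searched, and only for AP-1 did the interval miss the share over all promoters. All 7 matches in those 6 promoters lay inside the region. The 4 promoters below were chosen after their values were seen: the start of Fosb, which encodes an AP-1 subunit, and the 3 AP-1-holding promoters with the highest KO 2 score. Each is printed 5′ to 3′ on the gene's strand, and capitals mark the TGANTCA matches. Fosb lies at chr7:19309996-19310295 on the minus strand, Fcrlb at chr1:170912892-170913191 on the minus strand, Rbm38 at chr2:173021652-173021951 on the plus strand and Clec2h at chr6:128662135-128662434 on the plus strand.
Fosb: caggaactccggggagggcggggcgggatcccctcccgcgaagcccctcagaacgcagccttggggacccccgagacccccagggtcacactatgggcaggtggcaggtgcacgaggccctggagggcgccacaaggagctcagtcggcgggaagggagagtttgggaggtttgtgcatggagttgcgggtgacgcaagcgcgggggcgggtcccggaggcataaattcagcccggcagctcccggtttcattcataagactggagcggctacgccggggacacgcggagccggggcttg
Fcrlb: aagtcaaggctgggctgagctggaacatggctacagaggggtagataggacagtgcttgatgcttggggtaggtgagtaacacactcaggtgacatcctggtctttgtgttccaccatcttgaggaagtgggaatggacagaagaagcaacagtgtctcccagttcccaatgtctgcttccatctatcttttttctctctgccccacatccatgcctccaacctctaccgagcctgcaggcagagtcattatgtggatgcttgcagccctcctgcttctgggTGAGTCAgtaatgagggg
Rbm38: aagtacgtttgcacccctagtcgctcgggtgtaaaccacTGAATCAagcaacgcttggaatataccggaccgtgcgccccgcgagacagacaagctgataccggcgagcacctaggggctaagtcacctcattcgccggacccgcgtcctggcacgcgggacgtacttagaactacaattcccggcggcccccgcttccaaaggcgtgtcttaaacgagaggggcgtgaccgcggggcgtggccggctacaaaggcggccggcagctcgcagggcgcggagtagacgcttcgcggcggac
Clec2h: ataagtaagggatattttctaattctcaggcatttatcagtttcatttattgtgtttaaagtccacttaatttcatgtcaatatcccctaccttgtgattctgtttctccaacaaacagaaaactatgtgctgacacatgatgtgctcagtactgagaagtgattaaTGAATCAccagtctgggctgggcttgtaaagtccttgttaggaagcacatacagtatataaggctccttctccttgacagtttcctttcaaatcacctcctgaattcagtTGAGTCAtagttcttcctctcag

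For the other motifs searched, the share over all promoters lay inside the interval of the 30. The GATA letters AGATAA were in 16.7% of the 30 and 9.68% of all promoters. The ETS letters GGAAGT were in 8 of the 30 and in 5254 of all. The RUNX letters TGTGGT were in 13.3% of the 30 and 14.7% of all, and the E-box CACGTG, which MYC can bind, was in 6.67% of the 30 and 7.91% of all. The CEBP letters TTGNNNAA were in 30.0% and 33.5%, and the SP/KLF letters GGGCGG in 50.0% and 46.7%. The CTCF motif was in 6.67% and 4.16%. The IRF motif and the STAT letters TTCNNNGAA were in none of the 30, where 3.38% and 7.76% of all promoters hold them, and the interval reaches 11.6%. A match is a string of letters and no measured binding. Median GC content was 58.0% in these 30 promoters and 56.7% in all, while the median CpG count per 300 bp was lower, 10.5 against 13.0.

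Among microRNA genes, the hairpins of Mir6353, Mir7008 and Mir6387 overlapped a region. The neighbours Mir99a and Mirlet7c-1, the first of them known from work on blood stem cells, lay 3483 and 2733 bp from a region at chr16:77602484-77603033. That region scored 191.55 in KO 2, 126.38 in KO MycHet 1 and 193.49 in KO MycHet 2. Both mature sequences are shown from RefSeq with the seed, bases 2 to 8, in capitals, and their seeds differ.
mmu-miR-99a-5p: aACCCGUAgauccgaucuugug
mmu-let-7c-5p: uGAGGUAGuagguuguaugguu

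The regions scored below the middle of their lists. The score is the authors' peak caller value, no score lies below 50, and its scale is not stated, so scores are ranked within a list and not compared between lists. A region's score in any other list is that of the highest-scoring peak overlapping it by at least 1 bp. Such a peak can reach beyond the region. The rule used these lists, so their scores are a description. In KO 2 the regions had a median score of 127.12 (quartiles 88.68 and 177.81, highest 717.95), in KO MycHet 1 of 79.98 (62.58 and 108.00, highest 639.64) and in KO MycHet 2 of 96.28 (71.04 and 135.25, highest 630.56). The median region scored above 46.7% of all KO 2 peaks and above 28.0% and 37.8% of the KO MycHet 1 and 2 peaks. For the 38712 KO 2 peaks that were open in WT and in both KO MycHet lists, called shared peaks below, these figures were 72.8%, 60.6% and 64.5%. The median width was 499 bp, against 766 bp for shared peaks.

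**Figure D1:**
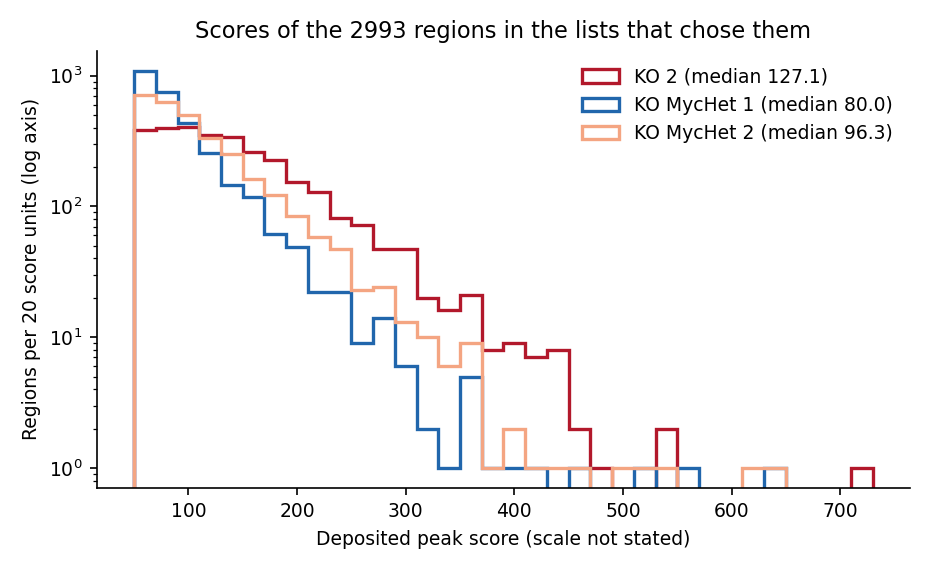
Number of regions (log axis) by deposited peak score in bins of 20 score units, for the 2993 regions in KO 2, KO MycHet 1 and KO MycHet 2. Most regions lie in the lower score ranges of all 3 lists, and the medians are 127.12, 79.98 and 96.28.

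The order of the regions by score was only in part the same from list to list. Across regions, Spearman's rho was 0.36 between KO 2 and KO MycHet 1, 0.49 between KO 2 and KO MycHet 2 and 0.51 between the KO MycHet lists. The same values were 0.83, 0.87 and 0.90 for shared peaks, which span a wider range of scores. These are correlations across regions of the same libraries and carry no test.

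Some regions stood next to chromatin that was open in WT. The nearest WT peak was 5797 bp away in the median, but 269 regions had one within 500 bp, 83 within 100 bp, and the closest was 1 bp away. The 83 had a median KO 2 score of 82.27, and 49 peaks left out for a WT overlap of at most 100 bp had one of 77.54. For 160 regions, or 5.35%, a KO MycHet peak over the region also overlapped a WT peak, so that a wide KO MycHet peak joined both. The other 2833 regions had KO MycHet peaks that overlapped no WT peak.

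The highest-scoring regions of KO 2 lay mostly far from gene starts. The top region, at chr16:10754296-10755149 and outside genes 9418 bp from Clec16a, a regulator of mitophagy, scored 717.95 in KO 2, 340.08 in KO MycHet 1 and 464.00 in KO MycHet 2. A region inside Reps1, an endocytosis adaptor, scored 544.65, 262.93 and 357.67 in the same order. Regions inside Galnt7, an enzyme of O-glycosylation (449.50, 125.81 and 305.02), and Arid1b, a subunit of the BAF chromatin remodeller (439.41, 110.57 and 235.09) were 2 of the 12. Mtmr7, a phosphoinositide phosphatase (445.75, 416.80 and 538.50), and Gng12, a G protein subunit (445.54, 350.76 and 438.26), ranked above these in both KO MycHet lists. The region near Ptprs, a receptor phosphatase, was the nearest of the 12 to a start, at 1512 bp (441.94, 144.08 and 236.44). None of these 12 overlapped a ChIP-seq peak, and 1, inside the netrin receptor gene Dcc, also had a KO 1 peak (79.62).

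The second KO library, KO 1, entered no step of the rule and held few of the regions. It had a peak at 45 of 2993, or 1.50% (CI 1.10 to 2.01), where 25.2% of all KO 2 peaks had one. The share was 44.5% for shared peaks and 0.723% for the KO 2 peaks without WT that were absent from both KO MycHet lists. Thus the opening that names these regions was seen in KO 2 and both KO MycHet libraries, and for most of them not in KO 1. Without WT 2 in the rule the share was 18.2%.

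The low share was seen at every score. Between scores of 50 and 100 it was 1.81% of 997 regions, against 8.96% of shared peaks in the same range. From 100 to 150 it was 0.680% against 13.2%, from 150 to 200 1.56% against 17.5% and from 200 to 300 1.91% against 28.0%. At scores of 300 or more, 4 of 117 regions had a KO 1 peak, or 3.42% (CI 0.939 to 8.52), against 74.4%. Shared peaks were chosen for a WT peak, and the regions for the lack of one, and what this choice adds to the gap was not tested. The score ranges were added after the data were seen.

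**Figure D2:**
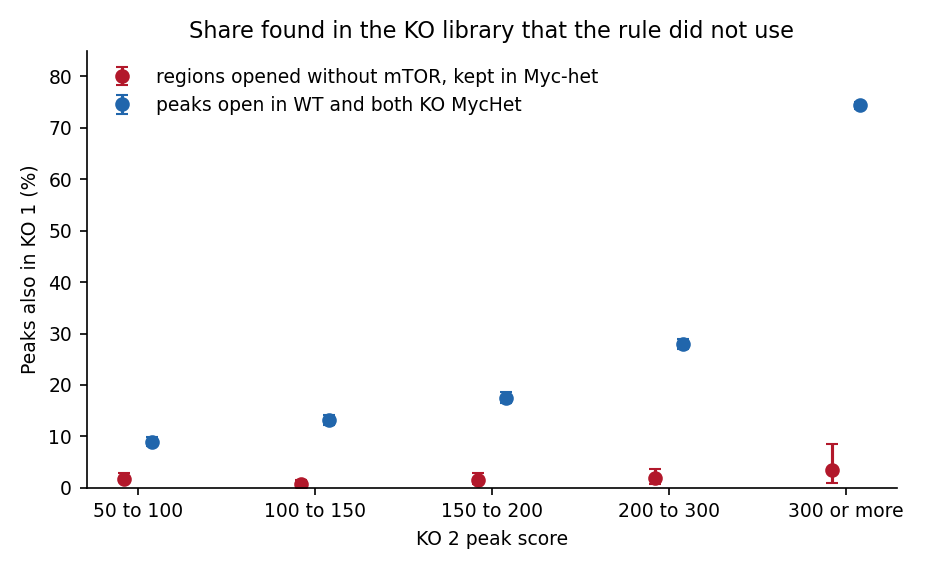
Share of peaks that also overlap a KO 1 peak, in percent with exact 95% CI, by KO 2 score range, for the regions and for peaks open in WT and both KO MycHet. The regions stay between 0.680% and 3.42% in all 5 ranges while the other peaks rise from 8.96% to 74.4%.

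A wider set chosen without WT 1, and so from libraries of the second set alone, allowed both short lists to be compared. Of 3017 KO 2 peaks found in both KO MycHet lists and not in WT 2, KO 1 had a peak at 56, or 1.86% (CI 1.41 to 2.40), and WT 1 at 24, or 0.795% (CI 0.510 to 1.18), where 23.1% of all KO 2 peaks had a WT 1 peak. The KO 1 share was the larger, and the intervals, which cover counting error only, did not overlap. The reverse set, 9304 WT 2 peaks in no KO or KO MycHet list, had a WT 1 peak at 64, or 0.688%. It also had to lack a KO 1 peak, whereas the wider set was free to have a WT 1 peak. The sets were thus not chosen alike, and their shares are not matched. With 1 held-out library per genotype there was no test.

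The 45 regions with a KO 1 peak had KO 2 scores from 60.42 to 469.01, with a median of 143.42, and included the Dcc region named above. A region assigned to Col11a1, a collagen gene, lay 98427 bp from its nearest end. The scores there were 100.78 in KO 1, 60.64 in KO 2, 75.20 in KO MycHet 1 and 108.35 in KO MycHet 2. Inside Slc9a3, a sodium-proton exchanger, they were 96.52, 214.91, 87.01 and 81.35. Chdh, which oxidises choline to betaine, had 76.65, 171.51, 155.37 and 79.20, and was the only 1 of the 6 named by KO 1 score with H3K27ac in KO (134.51). Over the 45 regions, the KO 1 scores had a median of 61.15 and a highest value of 123.81.

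H3K27ac was listed at few regions. Where it was listed it was nearly always in KO, both at the regions and over all KO 2 peaks. It was in KO at 139 regions and in WT only at 4, against 17156 and 692 of all KO 2 peaks. Of the 2993 regions, 128 had an H3K27ac peak in KO only, or 4.28% (CI 3.58 to 5.06), where 17.7% of all KO 2 peaks did. A further 11 had it in both genotypes (6.12% of all KO 2 peaks), 4 in WT only (0.134%, with 0.959% of all KO 2 peaks) and 2850 in neither. The KO H3K27ac list held 20036 peaks and the WT list 10078. When each list was cut to the same length by score, 51 regions were KO only (1.70%) and 9 WT only (0.301%). Over all KO 2 peaks the shares were 9.23% and 1.77%. The lists also differed in peak width, with a median of 1237 bp in KO and 333 bp in WT. With every ChIP-seq peak cut to 200 bp, 65 regions were KO only (2.17%) and 5 WT only (0.167%). Over all KO 2 peaks these shares were 13.6% and 1.65%. For the full lists, KO 2 peaks absent from both KO MycHet lists had nearly the same KO-only share, 4.60% (CI 4.20 to 5.04). The reverse set of WT 2 peaks had 4.03%. At scores of 50 to 100, H3K27ac in KO lay at 5.62% of regions and 4.60% of absent peaks. The shares were 3.85% and 6.13% from 100 to 150, and 4.33% and 10.9% from 150 to 200. From 200 to 300 they were 4.53% of regions and 3 of 19 absent peaks. The intervals overlapped in each of these ranges. Without WT 2 in the rule the KO-only share of the regions was 16.7%, and with KO 1 in place of KO 2 it was 11.8%.

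**Figure D3:**
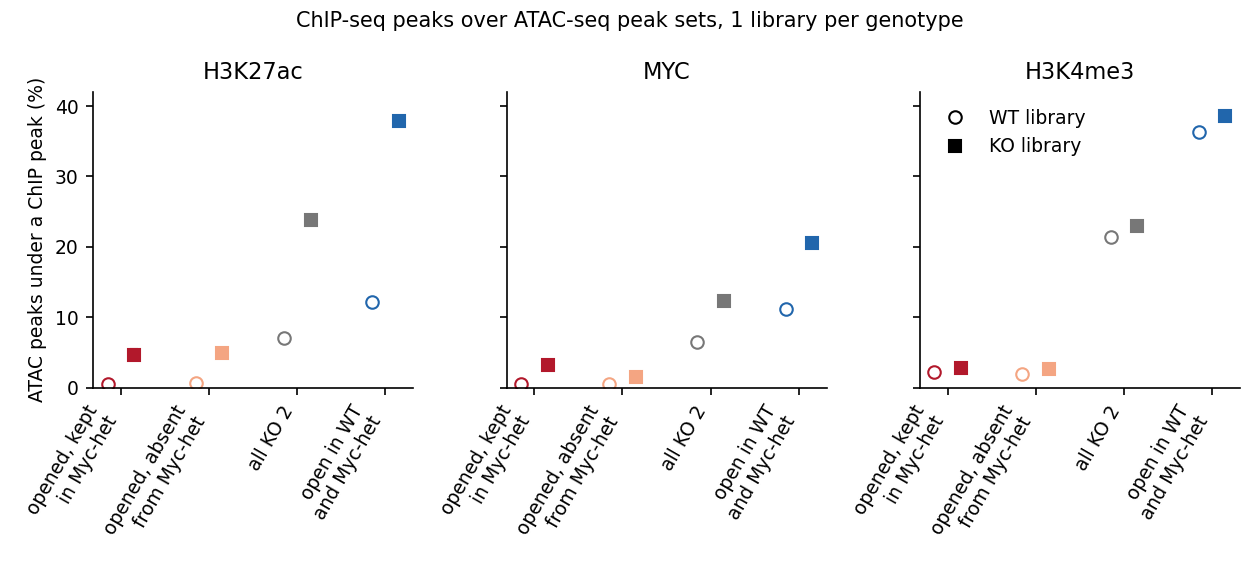
Share of ATAC-seq peaks under a peak of H3K27ac, MYC or H3K4me3 in WT (open circles) and KO (filled squares), in percent with exact 95% CI, for the regions, KO 2 peaks without WT that are absent from both KO MycHet lists, all KO 2 peaks, and peaks open in WT and both KO MycHet lists. The regions have H3K27ac at 0.501% in WT and 4.64% in KO (all KO 2 peaks: 7.08% and 23.8%), and MYC at 0.535% and 3.17% (all KO 2 peaks: 6.48% and 12.2%).

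The low share held away from gene starts. Among regions over 1 kb from a start, 4.49% had H3K27ac in KO, against 27.1% of shared peaks. Within 5 kb, 511 regions (17.1%) had an H3K27ac peak in KO and 140 (4.68%) in WT, against 33.6% and 11.8% of all KO 2 peaks and 45.7% and 16.7% of shared peaks. The share changed little with the score of the region, from 5.62% at scores of 50 to 100 to 4.27% at 300 or more, where shared peaks went from 16.7% to 58.4%.

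The highest KO-only H3K27ac peaks over regions lay within a few kilobases of genes. The highest, at 339.61, lay over a region outside genes 2069 bp from Man1c1, a Golgi mannosidase (ATAC-seq scores 82.27, 53.61 and 50.94 in KO 2, KO MycHet 1 and 2). Casp4, an inflammatory caspase, had a region 2430 bp from its start with H3K27ac at 328.13 in KO and H3K4me3 in both genotypes (597.21 in WT and 576.19 in KO). Eif2ak1, the heme-regulated kinase that inhibits translation initiation, had H3K27ac at 270.59, H3K4me3 at 801.18 and 744.50, and MYC in KO at 112.26. Lcp2, the adaptor SLP-76 of blood cell receptors, had H3K27ac at 226.52. In 6 of the 8 regions named for this class H3K4me3 was present in both genotypes; Man1c1 and Pcyox1l had none. The region in Crnkl1, a splicing factor, scored 51.17 in KO 2. The highest-scoring KO MycHet peaks that overlapped it had 568.56 and 629.31, and how far they reached beyond it is not given here.

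H3K27ac in WT only was rare. The highest was 166.97 in Pde4d, a cAMP phosphodiesterase, over a region scoring 66.97 in KO 2 and 254.92 and 259.70 in KO MycHet, and it also had MYC in WT only (53.38). In Nceh1, a cholesterol ester hydrolase, the WT peak scored 52.94 and the region 208.29, 50.30 and 114.46. The Pde4d region ranked above the Nceh1 region in both KO MycHet lists and below it in KO 2.

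MYC was listed at 95 regions in KO and 16 in WT, 3 of them in both (4.19% of all KO 2 peaks). In KO only it was at 92 regions, or 3.07% (CI 2.48 to 3.76), where 8.05% of all KO 2 peaks had it, and 13 had it in WT only (0.434%, with 2.29% of all KO 2 peaks). At the same length of both MYC lists, 28 regions were KO only and 15 WT only, whereas over all KO 2 peaks the shares were 2.80% KO only and 3.73% WT only. KO 2 peaks absent from both KO MycHet lists had MYC in KO only at 1.34% (CI 1.12 to 1.59), lower than the regions by intervals that did not overlap. These absent peaks had a median score of 68.36 against 127.12. Within the score range of 50 to 100, MYC in KO lay at 3.61% of regions (CI 2.54 to 4.96) and 1.56% of absent peaks (CI 1.30 to 1.85). From 100 to 150 the shares were 2.83% (CI 1.84 to 4.15) and 1.24% (CI 0.682 to 2.08), and from 150 to 200 3.64% (CI 2.27 to 5.51) and 0.730% (CI 0.0185 to 4.00), with intervals that overlapped. From 200 to 300 the shares were 2.15% of 419 regions and 1 of 19 absent peaks, or 5.26%. Without WT 2 in the rule the share of KO-only MYC was 7.82%, and with KO 1 in place of KO 2 it was 9.80%.

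The highest named one, 208.32 in KO, lay inside Eya2, a phosphatase and transcription coactivator, over a region of 57.11 in KO 2 and 72.79 and 54.95 in KO MycHet. Bptf, a subunit of the NURF remodeller, had MYC at 155.91, and Src, a tyrosine kinase, at 151.45. A region 7730 bp from Txn1, thioredoxin, had MYC at 153.80. Zdhhc20, a palmitoyltransferase, was the region with the highest KO 2 score of the 8 named for MYC (418.39, with 246.93 and 312.56 in KO MycHet and MYC at 115.24).

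Both marks came together at 15 regions in KO only, 0.501% of the regions where 3.13% of all KO 2 peaks had both. Near Sesn3, a stress-induced sestrin that restrains mTORC1, a region 82122 bp from the start had H3K27ac at 108.33 and MYC at 123.25. Sh2d3c, an adaptor of integrin signalling, had 152.96 and 134.23. Anxa3, an annexin, had 105.41 and 92.13 over a region 74784 bp away that was also in KO 1 (52.26). Sox5, a transcription factor, had 78.29 and 88.24, and is 1 of the genes with several regions.

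In the opposite class, MYC in WT only, the highest score was 124.52, at a region 11131 bp from Fosb. Sod2, the mitochondrial superoxide dismutase, had MYC in WT at 72.19 with H3K4me3 in both genotypes. Blm, a DNA helicase, had it at 72.67 over a region scoring 177.40 in KO 2.

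H3K4me3 was present at 53 regions in both genotypes, where 20.2% of all KO 2 peaks had it in both. It was at 82 regions in KO and 65 in WT, or 2.74% and 2.17% (22.9% and 21.3% of all KO 2 peaks). The low share was not particular to the regions. Of the 9686 KO 2 peaks without WT that were absent from both KO MycHet lists, 250 had it in KO and 184 in WT. In KO only it was at 29, or 0.969% where 2.69% of all KO 2 peaks had it, and in WT only at 12 (0.401%, with 1.11% of all KO 2 peaks). Prep, a prolyl peptidase (516.41), and C1galt1, which makes core 1 O-glycans (503.74), led the KO-only class. Snx20, a sorting nexin, had 373.74 over a region scoring 266.31 in KO 2. Any ChIP-seq peak was found at 281 regions, or 9.39%, where 38.0% of all KO 2 peaks had one. Without WT 2 the share with H3K4me3 in KO only was 3.47%, and with KO 1 in place of KO 2 it was 0.

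The regions were mostly distal. Only 98, or 3.27% (CI 2.67 to 3.98), lay within 1 kb of a gene start, where 20.5% of all KO 2 peaks did, and the share was 32.9% for shared peaks and 4.26% for KO 2 peaks absent from KO MycHet. The median distance to a start was 30986 bp, against 10902 bp for shared peaks and 17185 bp for all KO 2 peaks. It was 26249.5 bp for KO 2 peaks absent from KO MycHet and 25186.5 bp for the reverse set of WT 2 peaks. Inside genes lay 1526, or 51.0% where 60.6% of all KO 2 peaks did, and 317 (10.6%, with 6.76% of all KO 2 peaks) had no gene within 100 kb. The share of KO 2 peaks that were regions went from 3.31% on chromosome 11 to 5.08% on chromosome 18, and was 3.93% on X. Without WT 2 the share near a start was 14.5%, and with KO 1 in place of KO 2 it was 9.80%.

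**Figure D4:**
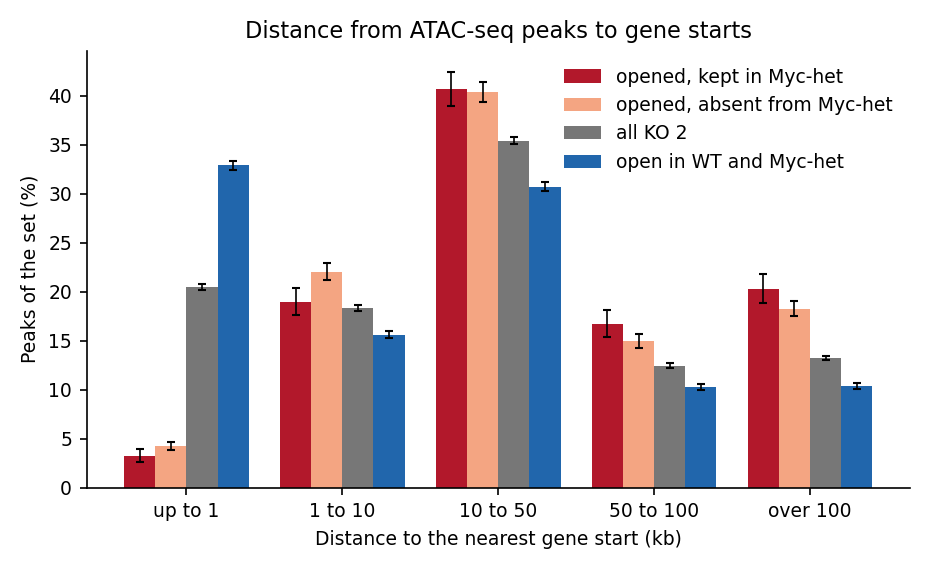
Share of ATAC-seq peaks (percent, bars from 0, exact 95% CI) by distance to the nearest gene start in kb, for the same 4 sets as in the ChIP-seq plot. The regions have 3.27% up to 1 kb and 40.7% between 10 and 50 kb, and 20.3% lie over 100 kb from a start.

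The 10 highest-scoring regions within 1 kb of a gene start were those of Bhlhe40, Clcn5, Fosb, Il23a, Fcrlb, Rtn2, Rbm38, Mrgpra2a, Dpep2 and Plek2. For genes without a listed start, either annotated end was counted as one. Bhlhe40, a transcriptional repressor, scored 332.72 in KO 2, 98.12 in KO MycHet 1 and 231.22 in KO MycHet 2. That region lay inside the gene, 714 bp from an annotated end that need not be its start. Il23a, which encodes the p19 subunit of interleukin-23, scored 303.27, 137.63 and 170.40. Fcrlb, an Fc receptor-like protein whose promoter is printed above, scored 300.94, 63.54 and 153.50, and no ChIP-seq peak lay there. Rbm38, an RNA-binding protein, scored 266.12, 86.53 and 52.12, with 58.52 in KO 1 and H3K4me3 in both genotypes (260.90 and 293.10). Clcn5, a chloride-proton exchanger, scored 328.36, 169.26 and 293.31. Of the 10, Fosb and Rbm38 had H3K4me3 in both genotypes and Mrgpra2a in KO only (60.66).

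The Fosb locus had 3 regions on chromosome 7. The region at the Fosb start, chr7:19309326-19310815, scored 303.67 in KO 2, 114.74 in KO MycHet 1 and 289.66 in KO MycHet 2. It carried H3K27ac at 76.70 in WT and 263.68 in KO and H3K4me3 at 477.17 and 279.09. A second region, at chr7:19321249-19321974, scored 202.38, 279.28 and 91.47 and had H3K27ac in KO only (140.24). It also had H3K4me3 in both genotypes (129.66 in WT and 144.78 in KO) and the MYC peak in WT only named above (124.52). The third lay at the start of the neighbour Rtn2, a reticulon of the endoplasmic reticulum, with 277.85, 204.20 and 250.83 and a KO 1 peak of 65.03. The start of Fosb thus had histone marks in WT without a WT ATAC-seq peak over this region.

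At Myc itself, 2 regions were assigned. One at chr15:61983030-61983882, 1459 bp from the start, scored 93.28 in KO 2, 276.45 in KO MycHet 1 and 74.46 in KO MycHet 2, with H3K27ac in KO only (160.27) and H3K4me3 in WT only (164.57). All 3 of the KO MycHet 1, H3K27ac and H3K4me3 scores are those of the peaks at the Myc start. The other, at chr15:61998806-61999192, scored 63.41, 75.38 and 111.57 and had no ChIP-seq peak.

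Each region was assigned to the coding gene that contains it, or else to the gene with the nearest end within 100 kb, a matter of position only. In this way 2676 regions fell to 2163 genes, of which 1769 had 1 region, 307 had 2 and 87 had 3 or more. Zfp704, a zinc finger gene, had 8 of its 28 KO 2 peaks among the regions, and 6 of them lay together in 103133 bp of chromosome 3 with scores from 58.10 to 163.95. Sox5 had 6 of 39, Fhdc1, a formin family gene, 5 of 15, and Foxp1, a forkhead repressor, 5 of 54. Joined at up to 50 kb, 746 regions fell into 339 groups of 2 or more. The same counts of genes and groups were not made for an equal number of other KO 2 peaks. Whether the regions lie closer together than such peaks was thus not tested. In a group of 5 on chromosome 5 beside Rbpj, the DNA-binding effector of Notch, KO 2 scores ran from 62.82 to 192.12, and 4 regions lay near Rgs1 and Rgs13, regulators of G protein signalling, at 121.33 to 249.10.

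Gene lists were compared by the share of regions assigned to their genes. For all 25 lists the share over all KO 2 peaks lay inside the interval of the regions, with 11 lists above it and 14 below. The counts are small, and nothing particular to a list follows from them.

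**Figure D5:**
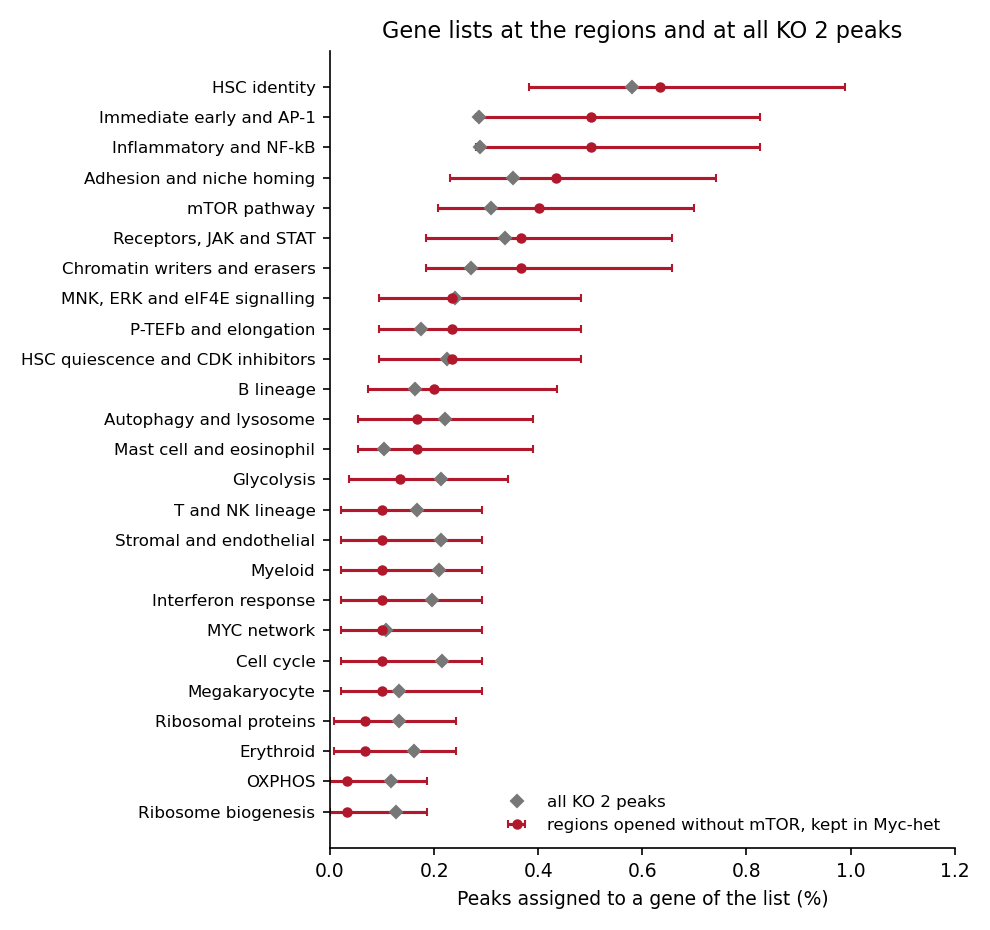
Percent of the regions (circles, exact 95% CI) and of all KO 2 peaks (diamonds) assigned to a gene of each of 25 lists. In every list the diamond lies inside the interval, and the lists with the highest shares of regions are HSC identity at 0.635%, and immediate early and AP-1 and inflammatory and NF-kB genes at 0.501% each.

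Genes of the immediate early response and AP-1 took 15 regions at 9 genes, 0.501% where 0.286% of all KO 2 peaks were so assigned. Ier5, an immediate early gene, had the highest at 359.10 in KO 2, 97.14 in KO MycHet 1 and 91.87 in KO MycHet 2, 20956 bp away. Fosl2, an AP-1 subunit, had 303.10, 156.88 and 130.50. Bach1, a heme-regulated repressor that binds AP-1-like sites, had 3 regions, scoring 155.21, 92.08 and 76.98 in KO 2. Bach2, its relative in lymphocytes, also had 3, while Dusp1, a MAP kinase phosphatase, Egr3, Batf3 and Btg2 had 1 each. Of these 15 regions, the one at the Fosb start was the only one named here with H3K27ac in both genotypes.

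Inflammatory and NF-kB genes also took 15 regions, at 11 genes, 0.501% where 0.288% of all KO 2 peaks were assigned. Rel, an NF-kB subunit, had a region inside the gene with 182.15 in KO 2, 110.70 in KO MycHet 1 and 130.94 in KO MycHet 2. The interleukin-1 genes Il1a and Il1b had 2 each, with 174.16 and 92.74 near Il1a and 122.78 and 68.21 near Il1b in KO 2. Il10, an anti-inflammatory cytokine, had 143.32 and 55.45, the latter with H3K27ac in KO (127.09). Interferon response genes, in mice given an interferon inducer, took 3 regions (0.100%, with 0.197% of all KO 2 peaks), near Ifitm1 and Irf1 and inside Rsad2.

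HSC identity genes took 19 regions at 12 genes, 0.635% where 0.579% of all KO 2 peaks were assigned. Mllt3, a reader of acylated histones that maintains HSC, had 3, the highest at 290.98 in KO 2, 162.47 in KO MycHet 1 and 202.06 in KO MycHet 2. Etv6, an ETS repressor needed by HSC, had 3, with 264.08, 223.58 and 358.44 at the highest. Zfp36l2, which promotes mRNA decay, had 276.39, 146.15 and 249.40. The regulator Runx1 had 2, and Kit, Meis1, Mecom and Myb 1 each, the Kit region lying outside the gene at 70877 bp. The Etv6 region was the highest of these in both KO MycHet lists.

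Genes of the mTOR pathway took 12 regions at 8 genes, 0.401% where 0.309% of all KO 2 peaks were assigned. Sgk1, a kinase switched on by mTORC2, had regions outside the gene, 90723 and 42400 bp from its nearest end. The first scored 345.29 in KO 2, 156.66 in KO MycHet 1 and 240.79 in KO MycHet 2. The second scored 265.29, 197.19 and 269.19, with MYC in KO (56.17). Rptor, the scaffold of mTORC1, had a region inside the gene with 189.67, 150.30 and 201.24. Sesn3 had 3, at 101.79, 96.25 and 85.18 in KO 2. In the growth machinery, ribosomal protein genes took 2 regions (0.0668%, with 0.132% of all KO 2 peaks). Ribosome biogenesis and OXPHOS genes took 1 each (0.0334%, with 0.128% and 0.116% of all KO 2 peaks). Cell cycle genes took 3 (0.100%, with 0.215%), in Ccnd3 and near E2f3. The MYC network list took 3 (0.100%, with 0.108% of all KO 2 peaks), near Myc and Mxi1.

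The remaining lists gave shares on both sides of the background. Adhesion and niche homing genes took 13 regions (0.434%, with 0.352% of all KO 2 peaks), the highest in Selplg, the P-selectin ligand, at 209.12 in KO 2, 66.64 in KO MycHet 1 and 90.22 in KO MycHet 2. Chromatin writers and erasers took 11 (0.368%, with 0.27%), led by Hdac4, a histone deacetylase, with 276.28, 293.32 and 316.26. Receptors, JAK and STAT took 11 (0.368%, with 0.335%), led by Jak1, the kinase of many cytokine receptors, at 206.85, 118.71 and 182.02. The Hdac4 region ranked highest of these 3 in every list.

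HSC quiescence genes took 7 regions (0.234%, with 0.225%), among them Btg2, an antiproliferative gene, at 238.48, 72.91 and 106.54 with H3K27ac in KO (103.89). Foxo3, a forkhead factor that guards HSC quiescence, had 2. MNK, ERK and eIF4E signalling genes took 7 (0.234%, with 0.24%) and P-TEFb and elongation genes 7 (0.234%, with 0.175%). Autophagy and lysosome genes took 5 (0.167%, with 0.222%), of which 3 in Mitf, a transcription factor of the TFE family, and glycolysis genes 4 (0.134%, with 0.213%). Pgk1, a glycolytic kinase, had H3K27ac in KO only (194.40) over a region of 100.97 in KO 2.

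Markers of other cell types were assigned few regions, with shares on both sides of those over all KO 2 peaks. Mast cell and eosinophil genes took 5 (0.167%, with 0.104% of all KO 2 peaks), led by Il1rl1, the interleukin-33 receptor, with 252.75 in KO 2, 64.62 in KO MycHet 1 and 121.71 in KO MycHet 2, and including Hdc, which makes histamine, and Cpa3. B lineage genes took 6 (0.200%, with 0.164%), and erythroid genes 2 (0.0668%, with 0.162%), in Car2 and Sptb. Myeloid genes took 3 (0.100%), near Cebpb and in Csf1r, where 0.209% of all KO 2 peaks were assigned. The T and NK list (0.166% of all KO 2 peaks), the megakaryocyte list (0.133%) and the list of stromal and endothelial genes (0.213%) took 3 regions each, or 0.100%. Their part in the results was not tested.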

How the data were processed

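ATAC-seq and ChIP-seq peak lists of 12 libraries were used, and 8 RNA-seq samples were not analysed here. Each deposited list holds the peaks of 1 library with a score the authors deposited from their peak caller, at least 50 in every list and of unstated scale. Per the submitters' processing notes, the build was mm10 and CASAVA was among the tools. Not given in the sources used here were the read aligner, the version and settings of the caller, any input control and how ATAC-seq reads were treated. Peaks on chromosomes 1 to 19 and X were compared by an overlap of at least 1 bp with Python 3.11.15, pandas 2.3.3, numpy 2.4.6, scipy 1.17.1 and matplotlib 3.10.9, and counts were checked against bedtools 2.31.1. Overlap counting was tested on simulated intervals.

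The members and gene lists were chosen with earlier results of these data known. Of 773 listed genes, 770 matched. A start is that of the RefSeq promoter table for 17274 coding genes and either annotated end for the other 4357, all of chromosome 18 among them. Shares carry exact Clopper-Pearson 95% intervals, which cover counting error only, and depth is unknown. With 1 ChIP-seq library per genotype, and 2 ATAC-seq libraries of which the rule used most, no test between genotypes was made. Named were the 12 regions with the highest KO 2 score, 6 by KO 1 score, 8 each by KO-only H3K27ac and MYC score, 4 by H3K4me3, up to 6 each in WT only, up to 8 with both marks, 10 at starts, 10 genes with most regions and up to 3 per list. Predicted genes were left out as names, and the text gives some of the named ones; the results of some genes are not reported here. Genes outside this rule, namely the regions of Fosb, Rtn2, Il10, Il1a, Il1b, Bach1, Sesn3 and Myc taken as sets, those grouped by position, and the microRNA pair, were chosen after their values were seen. Alternatives were another overlap, a margin to WT peaks, a score minimum, each library left out, other ChIP peak settings, another window and another gene assignment. No genome sequence was used, so the motif search planned for the peaks was run on promoters only.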

Additional observations from a re-analysis of the deposited data

How the results depend on the processing

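With libraries left out in turn, the number of regions ran from 51 to 25698. The KO 1 share ran from 1.28% to 18.2%, KO-only H3K27ac from 4.33% to 16.7%, KO-only H3K4me3 from 0 to 3.47%, KO-only MYC from 2.48% to 9.80% and the share near a start from 3.37% to 14.5%. An overlap of 50% of the shorter peak gave 3.55% for KO-only H3K27ac and 2.39% for MYC, and a margin of 500 bp to WT peaks gave 2.90% for H3K27ac and 2.57% near a start. The 45 regions also in KO 1 gave 11.1% for H3K27ac, 2.22% for H3K4me3, 6.67% for MYC and 8.89% near a start. Equal numbers of ChIP-seq peaks gave 1.70% for H3K27ac and 0.936% for MYC, and peaks of 200 bp gave 2.17% for H3K27ac and 0.267% for H3K4me3. A window of 2.5 kb put 6.85% near a start, and a window at either gene end, added after seeing the data, 4.34%. With a score of at least 100, the MYC network, OXPHOS and ribosome biogenesis lists had 0%. With the containing gene only, HSC identity had 0.301%, HSC quiescence 0.0668%, immediate early and inflammatory genes 0.167% each, MNK and ERK signalling 0.0334%, receptors 0.134%, and the MYC network, OXPHOS, ribosomal protein and ribosome biogenesis lists 0%. The cause of these shifts was not tested, except that fewer regions can be assigned when the nearest gene is not used. Of the values computed, 78 moved by less than their interval or 1.5 times and 42 by more. Leaving out regions whose KO MycHet peak overlaps a WT peak, added after seeing the data, left 2833 regions, with 1.59% in KO 1, 3.60% with KO-only H3K27ac and 2.93% with KO-only MYC. Read depth is unknown, so how far it limits these shares cannot be said. No paired analysis was possible because the replicate numbers of the first ATAC-seq libraries were given in accession order and no value here comes from a test.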
